A study of Homo sapiens with 2 samples.

Results

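The regions described here are non-Alu ADAR1 clusters that lie near an ADAR1-bound Alu element in the RNA of U87MG cells, a human line established from a glioblastoma. ADAR1 contacts were mapped by CLIP-seq, in which RNA is crosslinked to protein with ultraviolet light, pulled down with an antibody and sequenced. A cluster is a stretch of genome where the authors placed such RNA, and the authors labelled each one Alu or non-Alu. A member is here a non-Alu cluster with an Alu cluster of the same strand at most 10000 bases away, counted between nearest edges, and with no other non-Alu cluster of that strand within 1000 bases. Members were thus chosen by class and by measured gaps on the same strand. By this rule 616 of 3582 non-Alu clusters were members (17.2%, Wilson 95% interval 16.0 to 18.5%), out of 23782 clusters in all.

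The study holds 2 libraries from untreated cells at passage 6, AB1 and AB2, named for the antibody label. Both carry the same mouse monoclonal antibody catalogue entry, although the study's description speaks of different antibodies. Cells were irradiated at 254 nm, and no control library without the antibody is among the samples used here. The authors deposited 1 list for the whole series, without tag counts, so no value below has a replicate, depth is unknown and no comparison of AB1 with AB2 was possible. Without replicates no significance test was run, and the intervals given cover counting error only. Neighbouring clusters can lie in the same transcript, so they are not independent.

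ADAR1 is an RNA-editing enzyme that acts on double-stranded RNA, where it turns adenosines into inosines. Alu elements are abundant primate repeats, and a pair of Alu copies in opposite orientation within one transcript can fold into a long hairpin, which is the best known ADAR1 substrate in human cells. Such a hairpin can bring ADAR1 close to sequence outside the repeat, and editing outside Alu elements is known to occur near them. The strand of a cluster is the strand of its RNA. Whether an Alu copy runs sense or antisense within that RNA is not recorded in the list, so inverted pairs within a transcript cannot be read from it.

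The distance limit fell on a gradual decline and not at a break. Among the 3039 non-Alu clusters without a close non-Alu neighbour (84.8% of the class), here called isolated, the nearest same-strand Alu cluster was at most 10000 bases away for 616 (20.3%). It was 10000 to 20000 bases away for 396, 20000 to 30000 bases for 284, 30000 to 40000 bases for 213 and 40000 to 50000 bases for 181. In a further 880 it was more than 100000 bases away. These counts describe the choice of members and support nothing by themselves. The members just inside the limit had gaps of 9824 bases (chr2:61644298-61644400), 9925 bases (chr9:107665878-107666110), 9944 bases (chr16:69184441-69184687), 9946 bases (chr17:70565690-70565894) and 9981 bases (chr7:158534206-158534341). The isolated clusters just outside had gaps of 10010 bases (chr19:6677856-6677960), 10054 bases (chr6:90402475-90402697), 10062 bases (chr12:112717066-112717183), 10075 bases (chr14:68126448-68126619) and 10178 bases (chr7:100771618-100771853). These 10 regions straddle the limit by fewer than 200 bases, and their lengths, from 103 to 247 bases, overlap.

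Alu clusters of the opposite strand showed no such decline with distance. Of the isolated non-Alu clusters, 78 had an opposite-strand Alu cluster within 10000 bases (2.57%, Wilson interval 2.06 to 3.19%). In the next 4 classes of 10000 bases the counts were 129, 122, 120 and 126. The lowest class of 2000 bases held 6 clusters for the opposite strand and 143 for the same strand.

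**Figure D1:**
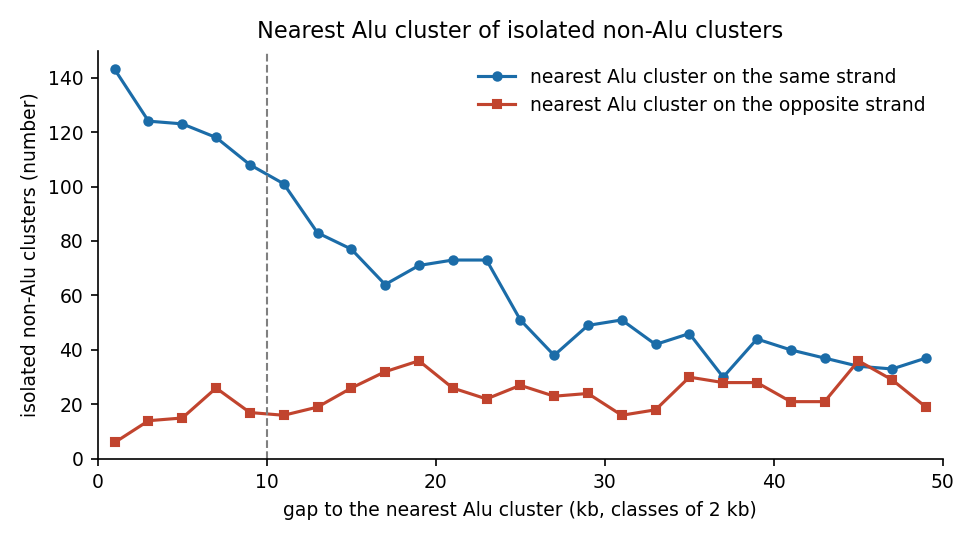
Number of isolated non-Alu clusters (vertical axis) by the gap to the nearest Alu cluster, in classes of 2000 bases up to 50000 bases, for Alu clusters of the same strand (circles) and of the opposite strand (squares). The dashed line marks the 10000-base limit; the same-strand counts fall from 143 in the first class to 30 to 44 beyond 36000 bases, while the opposite-strand counts lie between 6 and 36.

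Having a same-strand Alu cluster within 10000 bases was less frequent for non-Alu clusters than for Alu clusters themselves. With isolation set aside, 696 non-Alu clusters had one (19.4%), against 6518 of 20200 Alu clusters that had another Alu cluster (32.3%) and 30.3% of all clusters. For crowded non-Alu clusters, which are those with another non-Alu cluster within 1000 bases, the share was 14.7% (80 of 543). Both distances belong to the rule, so these shares describe the choice of members and were not tested.

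Within the limit, the members were spread almost evenly over distance. The median gap to the nearest Alu cluster was 4755 bases (95% interval of the median 4288 to 5130), with quartiles at 2179 and 7195.75 bases. The gap was at most 1000 bases for 68 members, 11%, and the 9 further classes of 1000 bases held 48 to 75 members each. Alu clusters with an Alu neighbour lay somewhat closer to it, with a median gap of 4065 bases (3991 to 4190). Of them, 14% had it within 1000 bases. Leaving out gaps of up to 100 bases, a range in which there was no non-Alu cluster (this choice was made after seeing the data), that share was 11.7% (743 of 6349), beside 11% of the members. The members' gaps were used to choose them, so these values are a description.

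No member touched an Alu cluster. The smallest gap was 112 bases, and 0 of 616 members lay within 100 bases of a same-strand Alu cluster. Taking 3 counts as the most that a count of 0 allows, the share could be up to 0.487%. The value 112 was also the smallest gap over all 3582 non-Alu clusters. Clusters of the same class did come closer, since 169 Alu clusters lay within 100 bases of another Alu cluster and 149 non-Alu clusters within 100 bases of another non-Alu cluster. How the class was assigned is not given in the sources used here, and its part in this empty range was not tested.

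The 10 closest members had gaps of 112 to 244 bases. The closest, chr17:79222139-79222374 on the minus strand, was 236 bases long and lay 112 bases upstream of an Alu cluster of 264 bases at chr17:79221763-79222026. Next came chr7:44051711-44051917 on the minus strand, 207 bases long and 128 bases from an Alu cluster of 108 bases. On the plus strand, chr7:100782307-100782513 followed 152 bases after an Alu cluster of 123 bases at chr7:100782032-100782154. This same Alu cluster was the nearest one to chr7:100771618-100771853, the region named above as lying just outside the limit. Members chr2:38960849-38961074 (158 bases), chr1:168049695-168049894 (167 bases), chr9:139376106-139376295 (189 bases) and chr10:24790247-24790461 (190 bases) each had 1 Alu cluster within reach, at the gap given. The last of the 10 were chr7:33046246-33046409 at 222 bases, chr13:108402604-108402631 at 229 bases and chr7:76649581-76649842 at 244 bases. Among the 10, the member on chromosome 13 stood apart with a length of 28 bases, while the other 9 measured 164 to 262 bases.

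The nearest Alu cluster was found on both sides of the members at similar frequency. In the direction of the RNA it lay upstream for 329 members (53.4%, Wilson interval 49.5 to 57.3%) and downstream for 287. For isolated non-Alu clusters whose nearest Alu cluster was 10000 to 20000 bases away, it lay upstream in 48.0% (190 of 396), and the difference of 5.43 percentage points had a Newcombe 95% interval of -0.876 to 11.7, which includes 0. The median gap was 5081 bases (4435 to 5553) for a nearest Alu cluster upstream and 4509 bases (3813 to 4949) for one downstream, so these intervals overlap. Counting every same-strand Alu cluster within reach gave 735 pairs of a member and an Alu cluster, 381 with the Alu cluster upstream and 354 with it downstream.

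**Figure D2:**
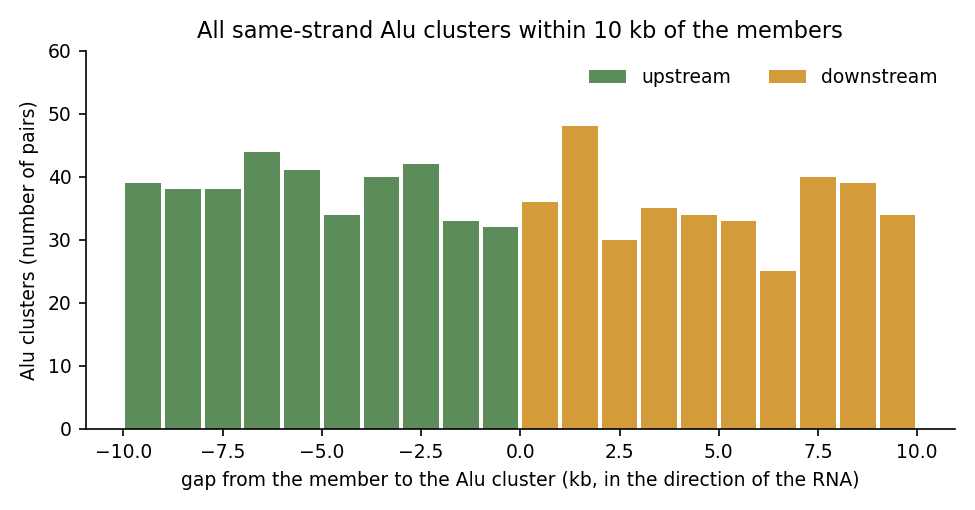
Number of pairs of a member and a same-strand Alu cluster (vertical axis) by the gap between them in classes of 1000 bases, with Alu clusters upstream of the member at negative and those downstream at positive values. The classes hold 25 to 48 pairs. The sides differed most at 6000 to 7000 bases (44 upstream, 25 downstream) and at 1000 to 2000 bases (33 upstream, 48 downstream). These differences were not tested.

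Most members had a single Alu cluster within reach. That was so for 517 members, 83.9%, while 84 had 2, 11 had 3, 3 had 4 and 1 had 5. The 99 members with at least 2 made up 16.1% (13.4 to 19.2%). Among Alu clusters with an Alu neighbour, 22% had at least 2. Only 41 members, 6.66%, had Alu clusters on both sides, beside 11.7% of those Alu clusters (762 of 6518). In these 41 the edges of the flanking Alu clusters were 2250 to 16668 bases apart, with a median of 9974.

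The member with the most Alu clusters was chr7:44044282-44044388, a cluster of 107 bases on the minus strand. It had 5, of which 3 lay upstream at gaps of 1716, 5589 and 7086 bases and 2 downstream at gaps of 545 and 9436 bases. The Alu clusters measured 53 to 226 bases. A second member of the same strand, chr7:44051711-44051917, shared 4 of these 5 Alu clusters, all downstream of it, at gaps of 128, 1507, 5516 and 7974 bases. Together these 2 members and 5 Alu clusters spanned 17125 bases.

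On chromosome 16, chr16:70028122-70028327 on the minus strand, 206 bases long, had 4 Alu clusters within reach. One of 83 bases lay 482 bases upstream, and 3 lay downstream at gaps of 4445, 6732 and 7016 bases. A further 2 members followed upstream of it, chr16:70036823-70036927 with 105 bases and chr16:70040904-70041101 with 198 bases. The latter lay 642 bases from its only Alu cluster. Linked through shared Alu clusters, these 3 members and 5 Alu clusters formed a neighbourhood of 20163 bases. A different arrangement was seen for chr16:89977510-89977666 on the plus strand, whose 4 Alu clusters were all upstream and close to each other, at gaps of 8332, 8838, 9037 and 9481 bases.

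The other 6 of the 10 members with the most Alu clusters had 3 each, and were the 6 with the smallest gaps among 11 members with 3. For chr9:140440106-140440304 the gaps were 2713 bases upstream and 684 and 8033 bases downstream. For chr12:50610686-50610878 they were 871 bases upstream and 1186 and 9733 bases downstream, and for chr1:21554378-21554617 883 bases upstream and 8851 and 9123 bases downstream. Member chr10:51246686-51246878 had Alu clusters 948 and 4032 bases upstream and 1723 bases downstream. The pair chr11:122009953-122010236 and chr11:122012681-122012942, of 284 and 262 bases, lay 2444 bases apart and shared the same 3 Alu clusters, which measured 59, 117 and 101 bases. In all 6, and in 9 of the 11, the Alu clusters lay on both sides of the member. The exceptions were chr5:179751153-179751336, with all 3 downstream, and chrX:73437672-73437850, with all 3 upstream.

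**Figure D3:**
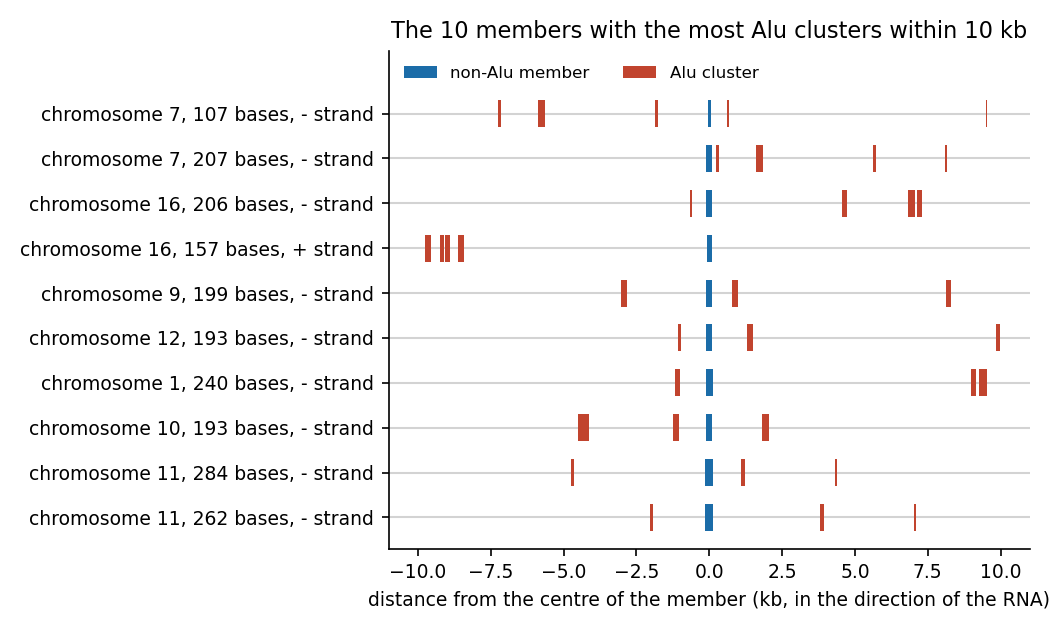
Maps of the 10 members with the most same-strand Alu clusters within 10000 bases, drawn to scale and aligned on the member's centre, with the direction of the RNA from left to right (horizontal axis in kb). The 5 Alu clusters of the first member lie on both sides, whereas the 4 of the chromosome 16 plus-strand member lie together more than 8000 bases upstream.

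The members lay on both strands. There were 333 on the minus strand (54.1%, 50.1 to 58.0%) and 283 on the plus strand, while solitary non-Alu clusters, which are isolated and have no Alu cluster within 10000 bases, were on the minus strand in 49.7% of 2423. The difference of 4.33 points had an interval of -0.0947 to 8.70, which includes 0. The minus-strand share was 49.5% for crowded non-Alu clusters and 49.9% for Alu clusters. Beside the 54.1% of all members, 13 of the 15 members with 3 or more Alu clusters were on the minus strand. Of the 99 with 2 or more, 59 were. Several of these shared Alu clusters, so they are fewer independent places than their number. Strand was not among the planned results, and no strand share of other clusters with as many Alu clusters is set beside these counts.

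Members and Alu clusters mostly stood in pairs. Linking members through every Alu cluster within reach gave 554 neighbourhoods, of which 425 held 1 member and 1 Alu cluster. There were 57 neighbourhoods with 2 or more members, holding 119 members in all, and 89 with 2 or more Alu clusters. In total, 661 different Alu clusters, 3.27% of that class, lay within reach of a member, 70 of them within reach of more than 1 member. The most members around a single Alu cluster was 4, on the minus strand from chr2:216243835-216257822. There, members of 244, 231, 201 and 174 bases lay 3924, 504, 3172 and 9420 bases from 1 Alu cluster of 226 bases. Another Alu cluster on the minus strand of chromosome 2 had 3 members, chr2:69685644-69685764, chr2:69688245-69688505 and chr2:69692092-69692301, at gaps of 4914, 2173 and 1161 bases.

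Other non-Alu clusters were also present around some members, beyond the 1000 bases that the rule keeps free. Within 10000 bases on the same strand, 120 members (19.5%) had another non-Alu cluster. The share was 8.13% over all clusters, 24.1% for solitary non-Alu clusters and 3.4% for Alu clusters. The difference of the members from the solitary clusters was -4.62 points (-8.03 to -0.916). In 51 members that non-Alu cluster was nearer than the nearest Alu cluster. A non-Alu cluster on the opposite strand within 10000 bases was found for 3 members, 0.487%. This was near the 0.572% of all clusters and the 0.441% of Alu clusters. It was found for 0 of 543 crowded and for 44 solitary clusters (1.82%), and the difference of the members from the latter was -1.33 points (-2.02 to -0.287). In both comparisons, 2 non-Alu clusters near each other can each be counted. There are thus fewer independent places than clusters, and these intervals can be too narrow.

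An opposite-strand Alu cluster within 10000 bases, which the rule did not use, was found for 10 members, 1.62% (0.884 to 2.96%). Over all clusters of the list the share was 2.02%, for solitary non-Alu clusters 2.81%, for crowded ones 2.39% and for Alu clusters 1.93%. The difference between members and solitary clusters was -1.18 points (-2.23 to 0.279), and the intervals against the crowded and the Alu clusters also include 0. None of the 616 members overlapped an opposite-strand Alu cluster, which by the same limit of 3 counts allows a share of up to 0.487%.

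In 5 of these 10 members the opposite-strand Alu cluster lay within 2328 bases. The closest was 685 bases from chr19:47990964-47991212, a minus-strand member of 249 bases with plus-strand Alu clusters on both sides, of 331 bases at a gap of 685 and of 131 bases at a gap of 1353 bases. Its same-strand Alu cluster was farther away, at 4696 bases. The member chr19:47994557-47994638 lay 3344 bases from it and had the same 3 Alu clusters within reach. For chr6:155594676-155594897 the opposite-strand Alu cluster was 1147 bases away, for chr1:155030472-155030596 1348 bases and for chr16:58314513-58314694 1377 bases, while their same-strand Alu clusters were 9071, 9529 and 8399 bases away. In all 5 the opposite-strand Alu cluster was thus the closer of both. In the other 5 members it lay 5785 to 9980 bases away. Each of the 10 had only 1 same-strand Alu cluster within reach.

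The median lengths of members and solitary non-Alu clusters lay within each other's intervals. For members it was 191 bases (188 to 194), with quartiles at 143 and 220 bases and a range from 14 to 973 bases. The median was 189 bases (187 to 192) for solitary, 202 bases (194 to 209) for crowded non-Alu and 193 bases (192 to 193) for Alu clusters. The 80 crowded clusters with an Alu cluster within reach were shorter than crowded clusters in general, with a median of 169 bases (144 to 203). PCR products of 75 to 250 bases had been size-selected, per the labels' protocols. Members within 1000 bases of an Alu cluster had a median of 201.5 bases (193 to 213, 68 members), and those over 5000 bases away 189.5 bases (182 to 193, 292 members). Across the 616 members, Spearman's rho was -0.06 between length and gap and -0.02 between the lengths of the member and of its nearest Alu cluster, as a description over clusters of 1 list.

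Long clusters were less frequent among members than among crowded non-Alu clusters. Over 400 bases were 5 members, 0.812%, beside 0.29% of all clusters, 0.949% of solitary and 4.42% of crowded non-Alu clusters and 0.0842% of Alu clusters. The members differed by -0.138 points from the solitary (-0.799 to 0.982), by -3.61 points from the crowded (-5.73 to -1.82) and by 0.728 points from the Alu clusters (0.26 to 1.80). The longest was chr1:246414684-246415656 with 973 bases, followed by chr3:182735584-182736347 with 764, chr13:101192067-101192605 with 539, chr20:35412623-35413059 with 437 and chr1:120906110-120906518 with 409 bases. Each had 1 Alu cluster within reach, at 5727, 2305, 2820, 5334 and 5551 bases in that order. It lay upstream in the first 4, all on the minus strand, and downstream in the fifth. Under 40 bases were 6 members, 0.974%, beside 0.315% of all clusters. The share was 0.784% for solitary and 1.1% for crowded non-Alu clusters and 0.218% for Alu clusters, and the members differed from the Alu clusters by 0.756 points (0.224 to 1.89). The shortest member had 14 bases, on the minus strand at chr7:16640313-16640326, 5151 bases from its Alu cluster.

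**Figure D4:**
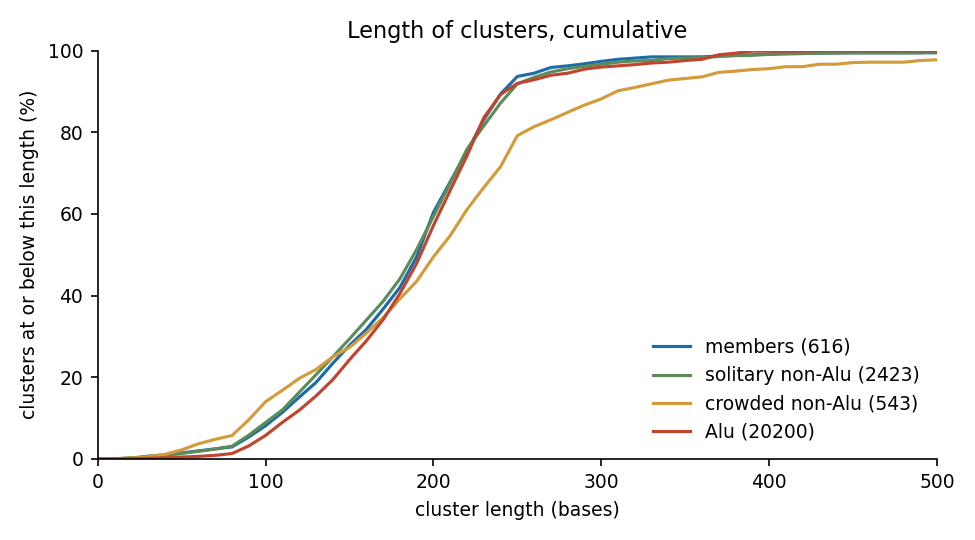
Cumulative share of clusters (vertical axis, %) by length in bases (horizontal axis, up to 500 bases) for the 616 members, the 2423 solitary and 543 crowded non-Alu clusters and the 20200 Alu clusters. The curves of the members and the solitary clusters nearly coincide, with medians of 191 and 189 bases, while the curve of the crowded clusters is broader, above that of the members at 100 bases (14% against 8.12%) and with a higher median of 202 bases.

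The Alu clusters near members had about the length of other Alu clusters. The 661 within reach had a median of 188 bases (182 to 193), and the remaining 19539 one of 193 bases (192 to 194). Of the 661, 30.6% had another Alu cluster within 10000 bases on their strand, against 32.3% of the remaining ones, a difference of -1.77 points (-5.22 to 1.91). Counting only the 564 clusters that were nearest to some member, the share was 21.3%, and the difference from all other Alu clusters was -11.3 points (-14.6 to -7.68). Counting only the nearest moves the further Alu clusters around a member into the other group, so part of this difference is set by the choice. The value thus depends on which Alu clusters are counted, and no direction is read from it.

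Members were found on 23 chromosomes. Chromosome 1 had the most, 66 of its 402 non-Alu clusters, followed by chromosome 2 with 58 of 301. Among chromosomes with at least 100 non-Alu clusters, the share of non-Alu clusters that were members was highest on chromosome 17 (41 of 171, 24.0%, Wilson interval 18.2 to 30.9%) and chromosome 16 (36 of 156, 23.1%, 17.2 to 30.3%). It was lowest on chromosome 15 (15 of 151, 9.93%, 6.11 to 15.7%) and chromosome 9 (19 of 177, 10.7%, 6.98 to 16.2%). The intervals of chromosomes 17 and 15 do not overlap. This pair was picked as the extremes of the list. Chromosome 17 also had one of the highest shares of Alu clusters with an Alu neighbour within 10000 bases, 41.2%. That share was 32.4% on chromosome 15, close to the 32.3% of all Alu clusters. On chromosomes 16 and 9 it was 33.6% and 34.3%, the reverse of the order of their member shares. Chromosome Y had 5 non-Alu clusters and no member.

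**Figure D5:**
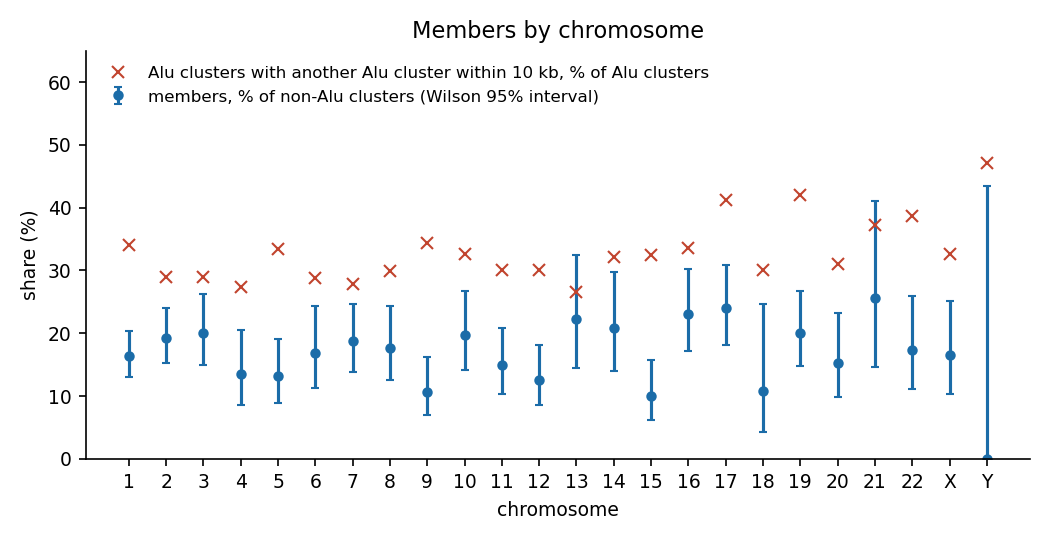
Share of the non-Alu clusters of each chromosome that were members (circles, %, with Wilson 95% intervals) and share of its Alu clusters with another same-strand Alu cluster within 10000 bases (crosses, %). Most intervals of the circles overlap. The circles lie below the crosses on every chromosome, but only the members also had to pass the isolation rule. On chromosomes 13 and 21 the cross lies within the interval of the circle.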

How the data were processed

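Per the labels' protocols, ADAR1-bound RNA from U87MG cells was sequenced in 2 libraries. The submitters' processing notes name cutadapt 1.1, Novoalign 2.08.22 and the build hg19. The cluster caller, any joining of the libraries and the basis of the Alu class are steps not given in the sources used here. How reads with several matching places were handled decides which repeat copies and near-identical copies are listed.

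The deposited list gives positions, class and strand, with no value per cluster, so sequencing depth is unknown and nothing separates the libraries. Gaps were counted between nearest edges with Python 3.11.15, pandas 2.3.3 and numpy 2.4.6. Intervals came from scipy 1.17.1 and bedtools 2.31.1 gave the same 616 members. In a planted arrangement all 1000 clusters were sorted correctly into members, solitary and crowded clusters. It did not check sides, numbers of Alu clusters or Alu gaps under 1000 bases. Starts are printed counting from 1, on the reading that the list counts from 0. Wilson intervals (95%) are given for shares, Newcombe intervals for differences of shares, and binomial order-statistic intervals for medians. For a count of 0 the upper limit is 3 counts. Intervals and limits cover counting error only and treat clusters as independent.

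The regions named are the 10 members with the most Alu clusters, the 10 with the smallest gap, the 5 longest, the 5 nearest to an opposite-strand Alu cluster, and 5 on either side of the distance limit. Other named regions were chosen after their values were seen. Members and lists were chosen with earlier results of these data known. No hg19 sequence or gene annotation was used here, so host genes, gene lists and Alu matches were not analysed here.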

Additional observations from a re-analysis of the deposited data

How the results depend on the processing

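Of 50 alternative values planned, 34 stayed within the interval of the reported value or, for the number of members, within 1.5 times of it. Several of the 34 could hardly move, since some settings change few members. Examples are leaving out chromosomes X and Y (600 members) and merging clusters within 50 bases (618 members). The other 16 follow from how the alternatives are built (another reach, another isolation distance or fewer clusters). With a reach of 5000 bases there were 324 members, 9.05% of non-Alu clusters, with a median gap of 2298 bases. Of these, 11.4% had 2 or more Alu clusters and 0.309% an opposite-strand Alu cluster within reach. With 20000 bases there were 1012 members, 28.3%, with a median gap of 7930.5 bases, and these shares were 27.5% and 6.52%. The share of members was 18.7% with an isolation of 200 bases and 19.4% without isolation. Keeping clusters at or above the median length of 192 bases left 177 members, 10% of the non-Alu clusters kept by this setting. These members had a median length of 222 bases, and 8.47% of them had 2 or more Alu clusters. The upstream share ranged from 50% to 53.5% over all settings. No paired analysis was possible because AB1 and AB2 are 1 library each, pooled in a single list, which also prevents leaving out a library. Alternatives that need genes or sequence were not run, since no hg19 reference was used here. Without tag counts, a place without a cluster cannot be judged as unbound.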

Other observations

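Some members resembled another member in gap and lengths, a pattern chosen after the data were seen. A pair was counted where the nearest Alu cluster lay on the same side and the gap and both lengths differed by at most 20 bases. Of 189420 pairs of members, 23 met this. In 7 of these pairs both members lay on the same chromosome, which was chromosome 1, 10, 16 or 19. Their distance was up to 2779976 bases on chromosome 1, 7719988 bases on chromosome 16 and 15593128 bases on chromosome 19. No such count was made for other clusters, so the 23 pairs have no background share. With 189420 pairs compared, some would meet these limits on gap and lengths without any relation, and how many was not tested. Those of the 23 that were not on the same chromosome lay on different ones.

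At this tolerance, a pair of neighbouring members matched another pair of neighbouring members in 1 case. On the minus strand of chromosome 1, chr1:146055434-146055648 and chr1:146057187-146057392 lay 2551 and 807 bases from 1 Alu cluster of 185 bases. At a distance of 1541837 bases, chr1:147597271-147597489 and chr1:147599035-147599227 lay 2547 and 809 bases from an Alu cluster of 169 bases. On chromosome 16, chr16:21487962-21488099 on the minus strand and chr16:22473477-22473614 on the plus strand were both 138 bases long and lay 1338 and 1336 bases upstream of their Alu clusters. Also on chromosome 16, minus-strand members chr16:21430420-21430639 and chr16:21434478-21434594, with gaps of 3129 and 7187 bases, resembled plus-strand members chr16:22530908-22531127 and chr16:22526949-22527073, with gaps of 3158 and 7212 bases, but missed the tolerance. On chromosome 10, chr10:46334598-46334807 and chr10:47205306-47205515, both of 210 bases, had gaps of 6365 and 6385 bases. Whether reads were assigned between near-identical copies at these places was not tested, since neither alignments nor hg19 sequence were used here.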
